A study of Mus musculus with 4 samples.

Results

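Actc1 and 6 other genes of the contractile apparatus, Ankrd1, Ankrd2, Csrp3, Xirp2, Myl4 and Mybph, were followed in tibialis anterior (TA) muscle, a mostly fast muscle that runs along the shin. They were picked by name because earlier results of the same data showed age differences for some of them, and all 7 were found among the 20340 gene labels with a value in every sample. mRNA-seq had been performed on TA muscle of wild-type C57BL/6 mice aged 3 months (Young 1 and Young 2) or 20 months (Old 1 and Old 2), and no treatment is named for either group. The values are FPKM, fragment numbers divided by transcript length and by the mapped total of each sample, so levels may be compared between genes. The labels do not say whether the 2 samples of an age came from separate mice, and the sex of the mice was left to chance. A figure legend of the paper names 2 independent mRNA-seq experiments per sample, without saying from which mice.

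The sarcomere is the contractile unit of striated muscle, in which thin filaments of actin slide along thick filaments of myosin between Z-discs. Actc1 encodes cardiac α-actin, the main sarcomeric actin of the heart and of the embryonic skeletal muscle, which the skeletal α-actin Acta1 largely replaces after birth. Myl4 encodes the atrial and embryonic essential light chain of myosin, and Mybph encodes myosin-binding protein H, a thick filament protein. Xirp2 encodes an actin-binding Xin repeat protein of cell junctions and Z-discs. Ankrd1 and Ankrd2 are muscle ankyrin repeat proteins that bind titin and can also enter the nucleus, and Csrp3 is the muscle LIM protein of the Z-disc. Stretch, overload and injury are known to raise several of these mRNAs in skeletal muscle.

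Serum response factor (SRF), MEF2, TEAD and MyoD-type factors are known regulators of such genes, through the CArG box, the MEF2 site, the MCAT element and the E box, respectively. RefSeq promoter entries (build GRCm38.p6) were found for all 7 genes, and 4 are printed 5′ to 3′ on the strand of the gene, for the 3 genes that were lowest in old muscle against young muscle and for Xirp2, which was not lower. Capitals mark matches to these motifs. The Actc1 stretch covers chr2:114052888-114053125 on the minus strand, and its capitals are a CArG box that begins 47 bases before the RefSeq start. It lies outside the annotated exons but inside the GENCODE span of Actc1, which begins farther upstream. The Ankrd2 stretch covers chr19:42035777-42035999 on the plus strand, with 3 E boxes. The Csrp3 stretch covers chr7:48848052-48848301 on the minus strand, with 4 E boxes. Another Csrp3 entry, at chr7:48843672-48843921, is not printed, and the Csrp3 entries together hold 8 E boxes. The Xirp2 stretch covers chr2:67445752-67446001 on the plus strand, with a pair of overlapping E boxes and then a MEF2 site that begins 74 bases before the start.
Actc1: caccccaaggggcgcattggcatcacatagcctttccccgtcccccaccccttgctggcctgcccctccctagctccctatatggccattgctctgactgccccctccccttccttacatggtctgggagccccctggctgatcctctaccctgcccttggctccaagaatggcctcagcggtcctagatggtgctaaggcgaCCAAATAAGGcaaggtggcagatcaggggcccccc
Ankrd2: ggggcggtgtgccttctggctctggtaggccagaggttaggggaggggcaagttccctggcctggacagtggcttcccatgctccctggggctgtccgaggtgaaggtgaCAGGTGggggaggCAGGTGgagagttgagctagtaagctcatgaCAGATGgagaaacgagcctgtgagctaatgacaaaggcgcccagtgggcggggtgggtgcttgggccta
Csrp3: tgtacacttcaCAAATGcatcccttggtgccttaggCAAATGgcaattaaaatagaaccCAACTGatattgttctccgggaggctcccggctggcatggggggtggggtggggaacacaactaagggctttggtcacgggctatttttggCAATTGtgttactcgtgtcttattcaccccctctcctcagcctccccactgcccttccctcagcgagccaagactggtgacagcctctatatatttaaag
Xirp2: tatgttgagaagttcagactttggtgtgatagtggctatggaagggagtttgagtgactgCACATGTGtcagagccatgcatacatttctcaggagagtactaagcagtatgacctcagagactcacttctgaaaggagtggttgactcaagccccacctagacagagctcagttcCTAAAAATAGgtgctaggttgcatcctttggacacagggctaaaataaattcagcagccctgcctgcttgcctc

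Over 32851 RefSeq promoter windows of 250 bases, read on both strands, a CArG box was present in 1.47% and a MEF2 site in 1.69%. The MCAT element (CATTCC) was present in 12.6%, the TATA box (TATAAA) in 12.4% and the E box (CANNTG) in 66.2%, so an E box is common in any promoter window. Of the 7 genes, Actc1 was the one with a CArG box in its window and Xirp2 the one with a MEF2 site. MCAT elements lay in the windows of Ankrd1 (2) and Mybph (1), which are not printed. A TATA box began 29 bases before the start of Ankrd2 and ran past the end of the printed stretch, so it is not in capitals, and another lay in the Mybph window. A match describes letters only, and binding was not measured in these samples.

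Before the values of the 7 genes are read, the scale of the samples needs to be given. FPKM summed to 698130 in Old 1 and 739302 in Young 2, but to 226747 in Old 2 and 251294 in Young 1. In both ages, 1 sample was higher by a ratio that varied with the level, with a median of 1.96 (Old 1 over Old 2) and 1.94 (Young 2 over Young 1) at 30 to 100 FPKM in the higher sample, and of 3.30 and 3.15 at 1 to 3 FPKM. Samples of like scale were therefore set side by side as crossed pairs, in which Old 1 is read against Young 2, and Old 2 against Young 1. The read depth is unknown, since FPKM hold no counts. Of the skeletal muscle markers, Mylpf, Tnnc2 and Pvalb stood above 3000 FPKM in every sample, while Ckm was listed at 0 in all 4 samples and Tnnt3 and Ttn in both old samples. A listed 0 can be a failed estimate and is described only as listed. Values ended within chromosome 7 with chromosomes in text order, so Acta1, Myl3 and Xirp1 were not analysed here.

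Across all genes, limma on log2(FPKM + 1) with Benjamini-Hochberg adjustment (two-sided, with a threshold of 0.05 for the adjusted p) gave 18 of 10266 tested genes (0.175%) as higher and 13 (0.127%) as lower in old muscle. The median standard error (SE) of the log2 fold change was 0.98. This SE, given below beside single genes, is pooled over genes and holds the scale difference of the samples. It is therefore not the spread of that gene alone. At least 2-fold in both crossed pairs, a rule applied to FPKM + 1 here and below, 88 genes (0.857%) were higher and 162 (1.58%) were lower. Both old samples lay above both young samples for 1.61% of genes and below them for 1.93%. All 7 genes passed the filter on low values of 1 FPKM in at least 2 samples. Since they were chosen for their difference between these ages, their values are a description and no p-value is given for them. In muscle RNA of this kind, fewer cells of a type and less RNA per cell cannot be told apart.

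Of the 7 genes, 5 were lower in old muscle in both crossed pairs (Actc1, Ankrd1, Ankrd2, Csrp3 and Mybph) and 2 were higher in both (Xirp2 and Myl4). Over all genes tested, 45.2% were lower and 42.3% higher in both pairs. Actc1, Ankrd2 and Csrp3 were at least 2-fold lower in both pairs and Myl4 was at least 2-fold higher. Only Actc1 was past the limma threshold, and it was no longer past it when any 1 of the 4 samples was left out. With the samples scaled to the same median of ratios, 4 of the 7 genes passed, all lower (Actc1, Ankrd2, Csrp3 and Mybph), where 7.94% of all genes were called lower and 5.61% higher. With the crossed pairs as a block, 5 were called lower and 1 higher, where 32.9% and 27.4% of all genes were. The groups did not overlap for Actc1, Ankrd2 and Csrp3 as deposited. On the scaled values, the old samples lay below the young for 5 genes and above them for 2, where 28.4% and 27.8% of all genes did the same. The median log2 fold change of the 7 genes was -0.86, against -0.01 over all genes tested.

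**Figure D1:**
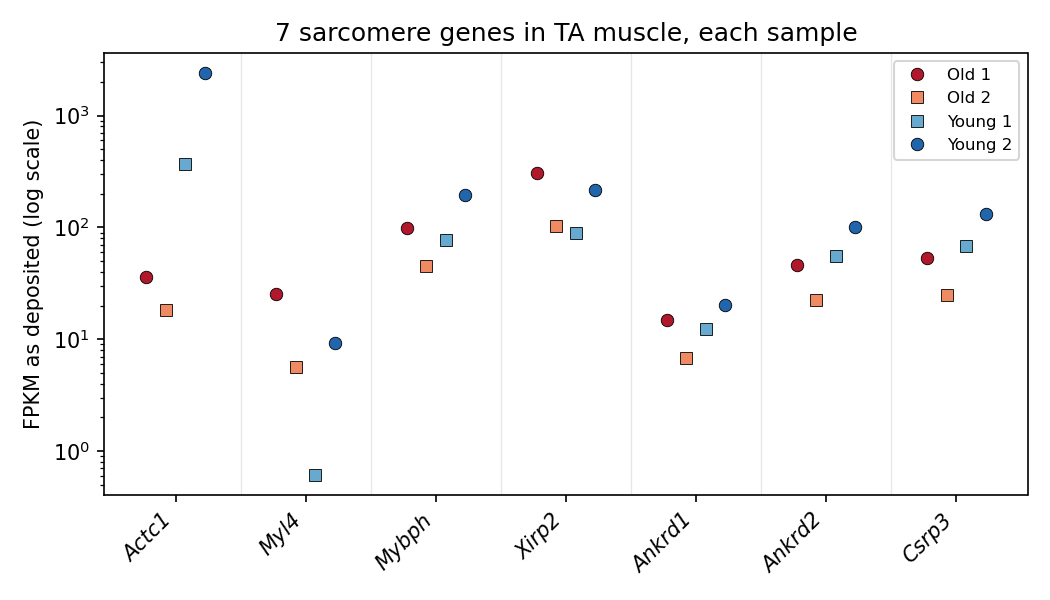
FPKM as deposited (log scale) of the 7 genes in each of the 4 samples, with 1 point per sample, circles for the samples of larger scale (Old 1 and Young 2) and squares for those of smaller scale (Old 2 and Young 1). Actc1 was at 18.3 to 35.8 FPKM in the old samples and at 372 to 2397 FPKM in the young samples, and Myl4 was lowest in Young 1 at 0.61 FPKM.

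**Figure D2:**
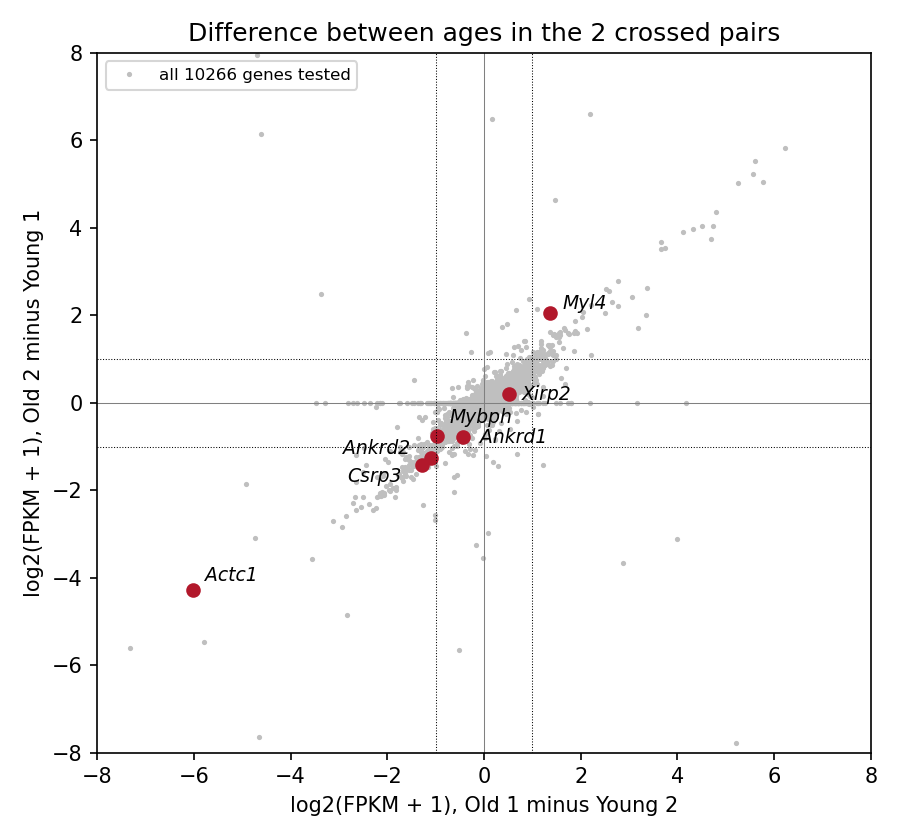
Difference of log2(FPKM + 1) between ages in the crossed pairs, Old 1 minus Young 2 (horizontal) and Old 2 minus Young 1 (vertical), for all 10266 genes tested (grey) and the 7 genes (red), with dotted lines at 2-fold. Actc1 lay at -6.03 and -4.27, Csrp3 and Ankrd2 just past the lower lines and Myl4 past the upper lines, and 9 genes lay outside the axes of 8 units each way.

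Ankrd2, at -1.11 and -1.27 in the crossed pairs, was the gene that met the 2-fold rule by the least, and Mybph, at -0.97 and -0.75, came nearest without meeting it.

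The cardiac α-actin gene Actc1 (chr2:114047288-114052811 in mm10, minus strand, 7 exons) showed the widest gap. Its level was 35.8 FPKM in Old 1 and 18.3 FPKM in Old 2, compared with 372 in Young 1 and 2397 in Young 2. Both old samples were thus low and both young samples high, by more than the ratio between samples of an age. Against the old sample of like scale, Young 2 was 66.9-fold and Young 1 was 20.3-fold higher. The log2 fold change was -5.15 (SE 1.01), the eighth lowest value among all genes tested. Ranked by FPKM within a sample, Actc1 stood at place 41 in Young 2 and 98 in Young 1, but at place 1822 in Old 1 and 1680 in Old 2.

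The young samples did not hold the same amount of Actc1. Young 2 had 6.45 times the FPKM of Young 1, while 54 genes within a factor of 2 of its level in Young 2 had a median ratio of 2.50, and 4 of them had a ratio at least as high as that of Actc1. The old samples differed by a ratio of 1.96, close to the median of 1.97 over 2033 genes of like level. Scaling the samples left Actc1 at 24.5 and 26.9 FPKM in Old 1 and Old 2 and at 540 and 1630 FPKM in Young 1 and Young 2, so the spread in the young remained while the old samples came together. Without Young 2, the log2 fold change was -3.81, and without Young 1 it was -6.49. Both are on FPKM as deposited, so the scale of the samples left in enters them.

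**Figure D3:**
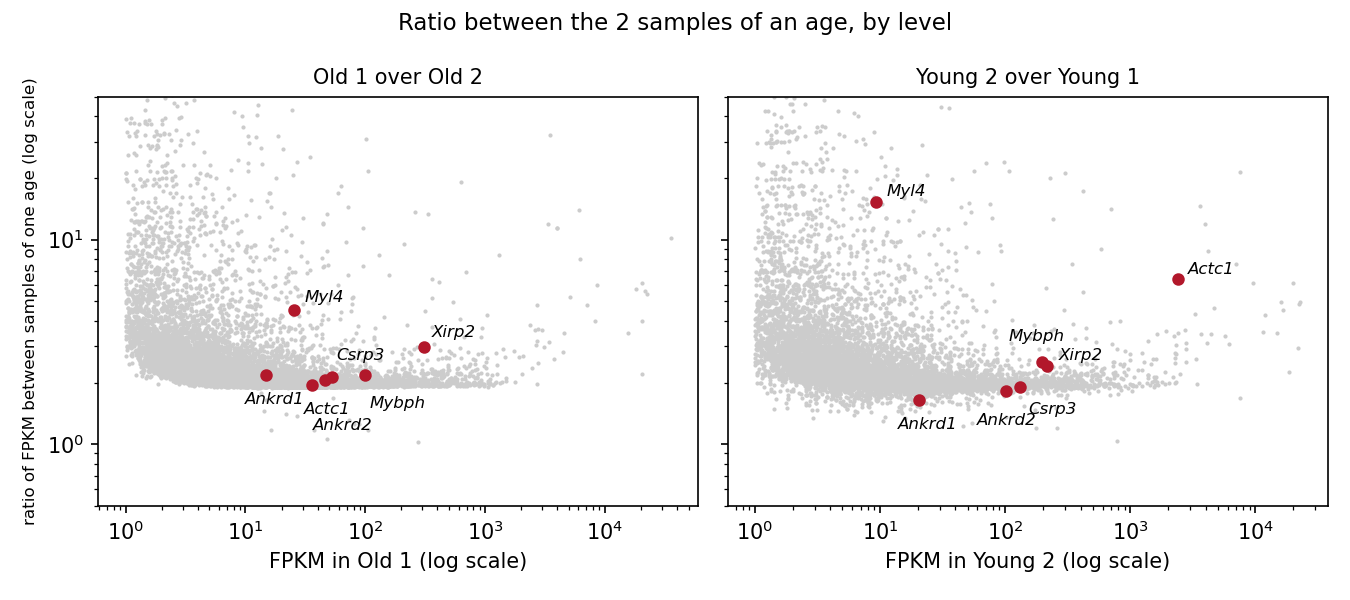
Ratio between the 2 samples of an age (log scale) against FPKM in the higher sample (log scale), Old 1 over Old 2 on the left and Young 2 over Young 1 on the right, with 1 grey point per gene and the 7 genes in red. Actc1 lay in the main band in old muscle (ratio 1.96) and above it in young muscle (6.45), Myl4 lay above it in both, and 57 of 9407 genes (left) and 60 of 9437 (right) had ratios outside the plotted range of 0.5 to 50.

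Other actins did not share the size of this difference. The coding sequence of Actc1 is much like that of Acta1, which was not analysed here, so the level of Actc1 is uncertain as far as reads could be placed on either gene, and this was not tested. The cytoplasmic actin gene Actb was at 147, 75.1, 95.3 and 181 FPKM in Old 1, Old 2, Young 1 and Young 2, and Actg1, the other cytoplasmic actin, was at 157, 78.9, 110 and 213 FPKM. The smooth muscle actin gene Acta2 was at 30.2, 15.5, 22.3 and 44.0 FPKM, and the second smooth muscle actin, Actg2, did not exceed 0.742 FPKM. For Actb, Actg1 and Acta2, the log2 fold change lay between -0.52 and -0.32. Expressed over Actb, Actc1 had a ratio of 0.244 in both old samples, 3.90 in Young 1 and 13.3 in Young 2. Actc1 was hence below Actb in old muscle and above it in young muscle. In the summed FPKM of the 7 genes, Actc1 held 6.14% in Old 1 and 8.05% in Old 2, but 55.0% in Young 1 and 78.1% in Young 2.

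Because Actc1 is the actin of the heart, markers of heart muscle were summed. The 8 markers came to 4.19 FPKM in Old 1 and 0.861 FPKM in Old 2, compared with 1.33 in Young 1 and 3.41 in Young 2. Nppb, Myl7 and Mybpc3 were listed at 0 in all samples. Of the 8, only Tnnt2 reached the level needed for testing, and it did not pass the limma threshold. Markers of smooth muscle, leukocytes, satellite cells, fibroblasts, endothelium, adipocytes and Schwann cells had sums in old muscle of 0.609 to 0.949 of those in young muscle over both crossed pairs.

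Myosin-associated genes went in different directions. Myl4 (log2 fold change 1.71, SE 0.97) was at 25.6 FPKM in Old 1 and 5.68 FPKM in Old 2, compared with 0.61 in Young 1 and 9.32 in Young 2. The old sample was higher in each crossed pair, by 2.75-fold (Old 1 over Young 2) and 9.31-fold (Old 2 over Young 1), but Young 2 exceeded Old 2, so the groups overlapped. The samples of an age were far apart for this gene, with a ratio of 15.3 in the young and 4.51 in the old, where genes of like level had medians of 2.08 and 1.98. Without Young 1 the log2 fold change was 0.37, and without Young 2 it was 3.05, both on FPKM as deposited and so also moved by the scale of the samples. Myl4 was a minor light chain at both ages, with 0.141% and 0.179% of the FPKM of Myl1, the fast essential light chain, in Old 1 and Old 2, and 0.0166% and 0.0562% in Young 1 and Young 2. Its locus (chr11:104502525-104587219, exons on the plus strand) is shared in the files with Cdc27, a cell cycle gene on the other strand, whose crossed ratios of old over young were 1.19 and 1.14.

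Among the other light chains, Myl2, the slow and ventricular regulatory light chain, was past the limma threshold and higher in old muscle, at 473 and 177 FPKM in Old 1 and Old 2 and 12.9 and 36.4 FPKM in Young 1 and Young 2. Myl1 was at 18206, 3168, 3664 and 16592 FPKM in Old 1, Old 2, Young 1 and Young 2, and the fast regulatory chain Mylpf was at 22419, 4152, 4602 and 22820 FPKM. Both differed between the samples of an age by more than genes at 30 to 100 FPKM did, as other genes above 3000 FPKM did, with median ratios there of 5.50 in the old and 4.43 in the young samples. Within the crossed pairs, their log2 differences lay between -0.21 and 0.13. The non-muscle and smooth muscle chains Myl9, Myl12a, Myl12b and Myl6 (counted with Myl6b under 1 label) had log2 fold changes between -0.50 and 0.05. Myl7, the atrial regulatory chain, was listed at 0 throughout.

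Mybph (chr1:134193447-134235431, plus strand) was at 99.3 FPKM in Old 1 and 45.6 FPKM in Old 2, compared with 77.3 in Young 1 and 196 in Young 2. The young sample was higher in each pair, by 1.97-fold (Young 2 over Old 1) and 1.70-fold (Young 1 over Old 2), although Old 1 exceeded Young 1. The log2 fold change was -0.86 (SE 0.97). Adora1, an adenosine receptor gene, lies on the opposite strand of the same locus and shares 1162 exon bases with Mybph. It was at 10.8, 1.77, 2.01 and 22.0 FPKM in Old 1, Old 2, Young 1 and Young 2. Whether the counting used strand is not given in the sources used here, so reads of the shared bases could have been split between both genes.

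The slow myosin-binding protein gene Mybpc1 was at 924, 276, 432 and 1384 FPKM in Old 1, Old 2, Young 1 and Young 2, lower in old muscle in both pairs as Mybph was. Its fast counterpart Mybpc2 was at 2694, 565, 470 and 1628 FPKM, higher in old muscle in both pairs. Mybph made up 3.68% and 8.07% of the FPKM of Mybpc2 in Old 1 and Old 2, against 16.5% and 12.0% in Young 1 and Young 2. The cardiac form Mybpc3 and the H-like form Mybphl were listed at 0 in all samples.

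The titin-associated and Z-disc genes Ankrd2 and Csrp3 had nearly the same profile. Ankrd2 (chr19:42035727-42045110, plus strand) was at 46.3 FPKM in Old 1 and 22.5 FPKM in Old 2, compared with 55.7 in Young 1 and 101 in Young 2. Csrp3 (chr7:48830397-48848051, minus strand) was at 53.1 FPKM in Old 1 and 24.9 FPKM in Old 2, compared with 68.7 in Young 1 and 131 in Young 2. For both genes even the higher old sample lay below the lower young sample. In the pairs, Young 2 over Old 1 and Young 1 over Old 2, Ankrd2 was 2.18- and 2.48-fold higher in young muscle and Csrp3 was 2.46- and 2.76-fold higher. The log2 fold changes were -1.19 (SE 0.94) for Ankrd2 and -1.36 (SE 0.95) for Csrp3 as deposited. After scaling they were -1.18 (SE 0.11) and -1.35 (SE 0.08), as a description. The ratio of Csrp3 to Ankrd2 stayed between 1.11 and 1.30 across the 4 samples, and 33 of the tested genes were nearer to Ankrd2 in profile than Csrp3 was (distance 0.180 on the centred log2 scale after scaling).

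Ankrd1 (chr19:36111964-36119844, minus strand), which like Ankrd2 is a titin-binding ankyrin repeat gene, was at a lower level than Ankrd2 and Csrp3. It was at 14.8 FPKM in Old 1 and 6.77 FPKM in Old 2, compared with 12.4 in Young 1 and 20.3 in Young 2, so Old 1 lay between the young samples. Young 2 over Old 1 was 1.37-fold and Young 1 over Old 2 was 1.83-fold, with a log2 fold change of -0.61 (SE 0.94). The ratio of Ankrd1 to Ankrd2 was 0.319 and 0.302 in Old 1 and Old 2 and 0.222 and 0.202 in Young 1 and Young 2.

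In the same families, Ankrd23, the third muscle ankyrin repeat gene, was far higher than both, at 2740, 751, 687 and 2401 FPKM in Old 1, Old 2, Young 1 and Young 2. It showed no drop in old muscle, with a log2 fold change of 0.16 (SE 1.30). Csrp1 and Csrp2, the LIM proteins of smooth muscle and other tissues, had log2 fold changes of -0.17 (SE 0.94) and -0.51 (SE 1.01), and the level of Csrp2 did not exceed 5.08 FPKM.

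Xirp2 (chr2:67445983-67526840, plus strand) was at 308 FPKM in Old 1 and 104 FPKM in Old 2, compared with 89.5 in Young 1 and 215 in Young 2. It was the highest of the 7 genes in both old samples, a place that Actc1 took in both young samples. Old 1 over Young 2 was 1.44-fold and Old 2 over Young 1 was 1.16-fold, while the groups overlapped as deposited. The log2 fold change of 0.36 was smaller than its SE of 1.01 as deposited, which is pooled over genes and holds the scale difference of the samples. After scaling it was 0.38 (SE 0.20). As deposited, it was -0.42 without Old 1 and -0.26 without Young 1, where the scale of the samples also moved the age means.

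**Figure D4:**
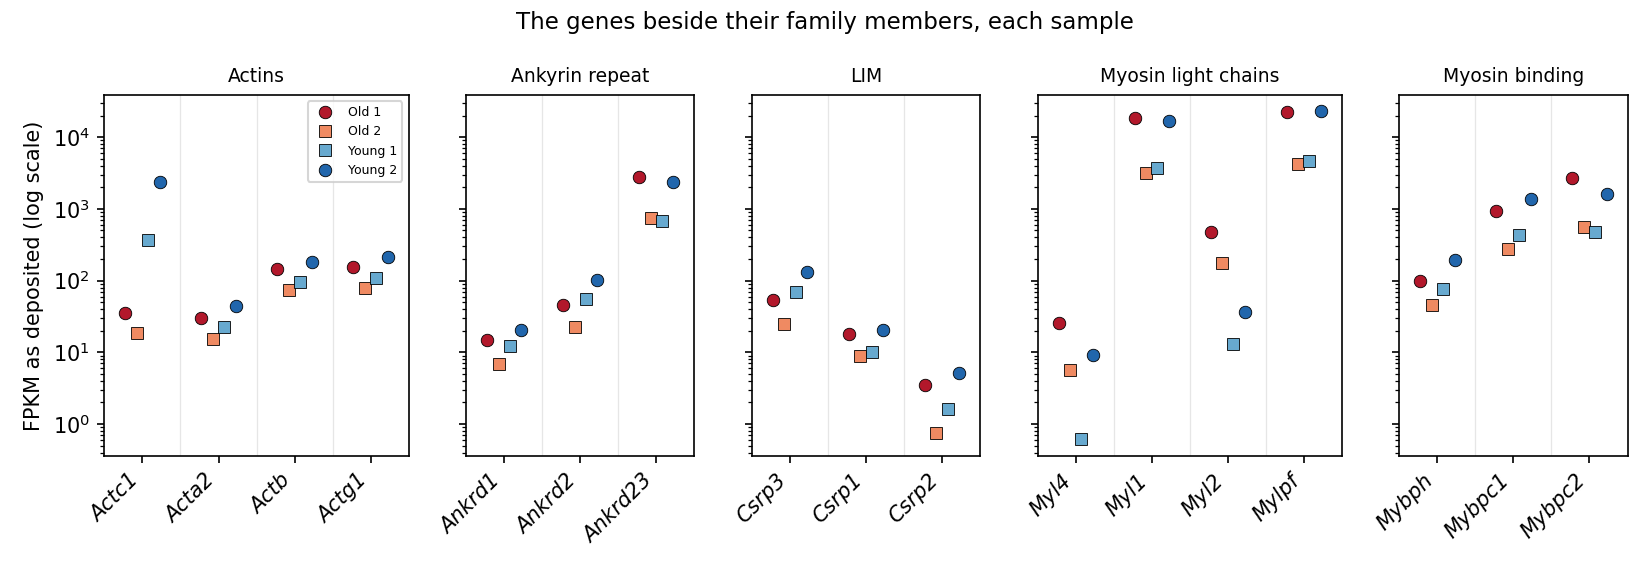
FPKM as deposited (log scale) of the actin, muscle ankyrin repeat, LIM, myosin light chain and myosin-binding protein genes named in the text, with 1 point per sample. Left out are Actg2, the genes listed at 0, and the non-muscle and smooth muscle light chains. Actc1 and Myl2 were the genes whose age groups lay far apart, Actc1 lower and Myl2 higher in old muscle, while Actb stayed between 75.1 and 181 FPKM.

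Partners of these genes in load sensing and at the Z-disc were taken from a list of 31 genes, of which 26 had a value and were tested. Of the 26, 1 was lower and 0 were higher at the limma threshold, and the same numbers held at an unadjusted p under 0.05. In both crossed pairs 16 were lower and 9 were higher, and the median log2 fold change was -0.18. At least 2-fold lower in both pairs were Ttn, Flnc and Hspb7, and no gene was 2-fold higher in both. Trim63, an E3 ubiquitin ligase gene that the paper reports as raised in old muscle, came close and is named outside the naming rule. Its log2 differences were 1.04 (Old 1 minus Young 2) and 0.98 (Old 2 minus Young 1), and both old samples lay above both young samples. Actn2, also named outside that rule, came close on the lower side, at -1.12 and -0.96 in the same pairs. Ttn, encoding titin, was the gene past the limma threshold, listed at 0 in both old samples with levels in Young 1 of 14.1 FPKM and in Young 2 of 299 FPKM. Flnc, the actin cross-linker filamin C, was at 94.6, 43.0, 92.5 and 245 FPKM in Old 1, Old 2, Young 1 and Young 2. Hspb7, a small heat shock protein, was at 134, 63.6, 139 and 302 FPKM. For both, Old 1 and Young 1 were close and the difference showed within the crossed pairs. By its mean FPKM over the 4 samples, which gives the samples of larger scale more weight, the titin cap gene Tcap was the highest of the list, although Actn3 exceeded it in Old 1. Tcap had a log2 fold change of -0.42 (SE 1.47).

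Regulators tied to stretch, SRF, MEF2 and TEAD made up a list of 18 genes, 16 of them tested. At the limma threshold 1 was higher and 0 were lower, also at an unadjusted p under 0.05, and 7 were higher and 9 lower in both crossed pairs, with a median log2 fold change of -0.10. Mef2c, a MEF2 factor of muscle, was the gene past the threshold, at 213 FPKM in Old 1, 96.7 FPKM in Old 2 and 45.9 FPKM in Young 2 but listed at 0 in Young 1. Fos, an immediate early gene, was at 20.2, 9.54, 1.90 and 4.74 FPKM in Old 1, Old 2, Young 1 and Young 2. Ccn1, a matricellular early response gene listed under its older symbol Cyr61, was at 39.1, 20.4, 5.93 and 12.5 FPKM. Both old samples thus exceeded both young samples for Mef2c, Fos and Ccn1, which were at least 2-fold higher in both pairs. Srf itself, named outside the naming rule for its CArG box, was at 29.0, 15.2, 18.6 and 35.3 FPKM, with a log2 fold change of -0.28 (SE 0.93).

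Since Actc1 and Myl4 are embryonic forms, genes of developing or regenerating fibers and genes that respond to denervation were counted as well. Of the developmental list, 14 of 18 genes had a value and 10 were tested. None passed the limma threshold and 0 passed an unadjusted p under 0.05. In both pairs 3 were higher and 5 lower, with a median log2 fold change of -0.05. Des, encoding the intermediate filament desmin, was its highest gene and had a log2 fold change of 0.25 (SE 1.26, 1 label with Speg). The developmental myosin heavy chain genes Myh8 and Myh3, named outside the naming rule, were low and went in opposite directions. In Old 1, Old 2, Young 1 and Young 2, Myh8 was at 1.14, 0.455, 1.64 and 2.56 FPKM, lower in both old samples. Myh3, which was not tested, was at 1.29, 0.516, 0.274 and 0.629 FPKM, higher in old muscle in both pairs. Of the denervation list, 9 of 12 had a value and 7 were tested. Again none passed the limma threshold, with 0 at an unadjusted p under 0.05, and 2 were higher and 5 lower in both pairs. By mean FPKM its highest gene was the cell cycle inhibitor Cdkn1a, exceeded by Gadd45a in both old samples, with a log2 fold change of -0.71 (SE 0.93). With values for under 80% of their genes, at 77.8% and 75%, both counts are void as a check of these groups. The medians of these lists, of the load-sensing list and of the regulators turned positive when Old 2 or Young 2 was left out. Those runs used FPKM as deposited, so the change of sign cannot be told apart from the scale of the samples left in.

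Most markers of slow fibers moved with age in the same samples. Of 11 slow-fiber markers, 10 had a value and were tested, and of these 5 were higher at the limma threshold and 7 at least 2-fold higher in both crossed pairs, and 0 were lower. Their FPKM summed to 1603 in Old 1 and 586 in Old 2, and to 98.3 in Young 1 and 209 in Young 2, or 7.68-fold and 5.96-fold higher in the old sample of the pairs. Myh7, the slow myosin heavy chain, was at 119, 32.3, 1.48 and 3.66 FPKM in Old 1, Old 2, Young 1 and Young 2, and Tnnt1, the slow troponin T, was at 204, 74.4, 3.56 and 6.67 FPKM. Myh7b was listed at 0 in Old 2 and Young 1. Casq2 and Myoz2, also on the list and named outside the naming rule, were nearly level, with log2 fold changes of 0.09 and 0.08. The slow myosin-binding protein gene Mybpc1, which is not on the list, was lower in old muscle in both pairs. The slow-fiber sum was thus high where Actc1, Ankrd2 and Csrp3 were low, and the part of fiber types in their levels was not tested. Of the 5 fibroblast markers, the collagen genes Col1a1, Col1a2 and Col3a1 were at least 2-fold lower in both pairs, while Pdgfra and Dcn were higher in both, and these genes are named outside the naming rule. The sum of all 5 was 166 and 86.0 FPKM in Old 1 and Old 2 and 125 and 246 FPKM in Young 1 and Young 2.

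Around the 7 genes, 34 other loci lay within 150 kb and 25 were tested. Of these, 1 was at least 2-fold lower in both crossed pairs and 0 were higher. It was C130080G10Rik (chr2:114054240-114061541, plus strand), annotated as an antisense RNA by GENCODE, 1429 bases from the Actc1 locus in the files. It was at 0.659 FPKM in Old 1 and 0.0302 FPKM in Old 2, compared with 5.76 in Young 1 and 13.5 in Young 2. Like Actc1, it was low in both old samples and high in both young samples, with a log2 fold change of -2.92. GENCODE places the starts of both genes 787 bases apart, on opposite strands that lead away from each other, so they share no annotated bases. Whether reads outside the annotated bounds added to either value was not tested. The next tested genes, Aqr and Zfp770, had 5.17, 2.54, 2.30 and 4.53 FPKM and 13.0, 6.68, 6.88 and 13.2 FPKM in Old 1, Old 2, Young 1 and Young 2, which followed the scale of the samples.

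The genes whose profile was nearest to Actc1 were found by Euclidean distance over the 4 samples, on centred log2(FPKM + 1) after scaling. The 5 nearest were Snora21 (distance 1.42), Ttn (1.49), a locus without a symbol (1.49), a second such locus (1.72) and Snora7a (1.86). All 5 were listed at 0 in both old samples, whereas Actc1 was not. Among the 6 other genes described here, Csrp3 was nearest to Actc1 (distance 3.99, with 89 tested genes nearer), then Ankrd2 (4.17, with 140 nearer), and Myl4 was the farthest (7.01). Over 4 samples that share 2 scales, these distances are a description.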

How the data were processed

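mRNA-seq of TA muscle was available as 4 samples, 2 per age, grouped by the age and number in the sample labels. The authors trimmed reads, removed PCR duplicates with in-house programs, aligned to mm10 with TopHat2 2.0.10 guided by RefSeq genes, and deposited FPKM per locus from Cufflinks (Cuffdiff 2.1.1 for their own comparisons, which was not repeated). The paper names a stranded kit and the labels a kit without that word. Depth is not given, and FPKM allow no counting interval.

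Rows ended within chromosome 7 or soon after, 1 incomplete line per sample was left out, and 20605 loci were present in all 4 samples (542 were not). Loci with the same label were summed. limma 3.58.1 in R 4.3.3 (lmFit, eBayes with a trend) was run on log2(FPKM + 1), over the 10266 genes that reached 1 FPKM in 2 or more samples, with Benjamini-Hochberg adjustment and a threshold of 0.05. This scale understates changes of low genes. limma takes both samples of an age for independent ones and pools the spread over all genes, so p-values measure the spread between these samples, which may be technical. If the samples of an age are 1 library, each age has n = 1. Gene lists were matched by symbol, split at commas, and described by counts and medians.

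The genes, lists and crossed pairs were chosen with earlier results of these data known. Named were the 7 genes, their family members, list genes at least 2-fold different in both crossed pairs, the gene with the highest mean FPKM of each list, markers of cell types whose sum differed 2-fold in both pairs, and the 5 genes nearest to Actc1. The fit was run on simulated data, where recovery under a scale difference was required of the scaled fit only. This is therefore no check of the main fit at the scale difference of these samples. Promoters were read from RefSeq entries, leaving out bases inside exons, and strands and exons were taken from GENCODE vM21. Figures were drawn with Python 3.11.15, pandas 2.3.3, numpy 2.4.6 and matplotlib 3.10.9. Alternatives covered the pseudocount (0.1), filters, scaling, quantile normalization, the highest locus of a symbol, blocks, no trend, other fold rules and leaving out each sample.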

Additional observations from a re-analysis of the deposited data

How the results depend on the processing

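The log2 fold change of Actc1, the 1 of the 7 genes past the threshold, kept its sign in every alternative run, several of which cannot change that value. When a sample was left out, without scaling, the scale of the samples left in also moved the age means. The log2 fold change of Xirp2 ranged from -0.42 to 1.15. The median of the load-sensing list then ranged from -0.95 to 0.41, of the regulators from -0.53 to 0.33, of the developmental list from -0.61 to 0.45 and of the denervation list from -0.62 to 0.46, and that of the 7 genes stayed negative at -1.52 to -0.27. The number of genes past the limma threshold, 18 higher and 13 lower, was 0 and 0 without a filter, 4 and 2 when all 4 samples had to reach 1 FPKM, 576 and 815 after scaling to the same median of ratios, and 89 and 136 after quantile normalization. Leaving out 1 sample gave 2 to 6 higher and 3 to 10 lower, with the lone sample of that age assumed to vary like the others. Of the 7 genes, 1 was past the threshold, against 0 without a filter, 4 after scaling, 4 after quantile normalization and 0 whichever sample was left out. The load-sensing list went from 1 to 0 without a filter, 0 with the filter on all 4 samples, 6 after scaling and 4 after quantile normalization, and to 0 to 1 when a sample was left out. The regulators went from 1 to 0, 0, 4 and 2 under the same settings, and to 0 to 1. After scaling, 1 developmental gene and 2 denervation genes passed, from 0.

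The replicate numbers share only a number. Deviations from the age means had a correlation of -0.885 between same-numbered samples, which follows the scale of the samples, and the cause was not tested. With the replicate number as a block, 2 genes were higher and 3 lower, and 0 of the 7 genes, 0 of the load-sensing list and 0 of the regulators passed. With the crossed pairing as a block, 2812 were higher (27.4%) and 3374 lower (32.9%), and 6 of the 7 genes, 16 of the load-sensing list, 12 regulators, 6 denervation genes and 4 developmental genes passed.

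If the lower old sample had to be 2-fold above the higher young one, or the reverse, 28 genes were higher and 36 lower, with 0 and 1 of the 7 genes, in place of 88, 162, 1 and 3. At 1.5-fold in both pairs, 373 were higher and 586 lower. With same-numbered pairs after scaling, 0 of the 7 genes were 2-fold higher. The sign of all 7 log2 fold changes held in the alternatives that kept all samples. For these genes the filters, the highest locus, the blocks and the fit without a trend left the log2 fold change as it was. Only the pseudocount, scaling and quantile normalization could move it. The log2 fold change of Actc1 ranged from -5.20 to -4.96 and that of Myl4 from 1.71 to 2.24. No value was obtained for Myl4 with at least 1 FPKM in all 4 samples. Depth limits all values by an unknown amount.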

Other observations

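H19 and Igf2, imprinted growth genes of the developmental list, had a value in Old 2 and Young 1 and were not analysed in the other samples. H19 was at 103.8 FPKM in Old 2 and 226 FPKM in Young 1, and Igf2 was at 3.84 FPKM and 4.96 FPKM. With 1 sample per age, these differences have no replicate check.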
